A study of Mus musculus with 12 samples.

Results

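The genes described here make, fold, modify and export secreted proteins, collagen above all, in the growth plate of the mouse tibia. They were chosen by name as 42 genes: 5 stress sensors and transcription factors of the endoplasmic reticulum (ER), 16 chaperones and folding enzymes, 9 genes of collagen modification inside the cell, 8 of the COPII transport coat, 2 of the translocon and 2 of collagen processing outside the cell. Of these, 41 had a probe set named by that gene alone, out of 18193 genes on the array with one, and Fkbp10 had none. The probe set with the highest mean log2 signal stood for each gene. All 41 passed the filter on low values, which asked for a zone mean of 50 or more somewhere, as did 11808 genes in all.

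RNA was measured on Affymetrix MOE 430 2.0 arrays in tibiae of CD1 mouse embryos at embryonic day 15.5, cut by hand into 3 segments by their shape. Zone I came from the ends of the bone and holds resting and proliferating chondrocytes, zone II holds mainly prehypertrophic and hypertrophic chondrocytes, and zone III holds the most mature hypertrophic cells together with the mineralized bone. No treatment or altered genotype was used, and all 3 groups are of the same strain and age. Each segment type was pooled over the embryos of a litter, with 4 litters and so 4 arrays per zone, lettered A to D, and the letter is not stated to mark a litter. Values are deposited signal intensities on a linear scale, with values on the 4 arrays given in the order A to D.

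Each segment is a mixture of tissues, and in such samples fewer cells of a type and less RNA per cell cannot be told apart. The summed signal of 10 early chondrocyte markers was 21985 to 27908 in zone I, 32942 to 35814 in zone II and 10100 to 12912 in zone III. For 8 prehypertrophic and hypertrophic markers it was 655 to 824, 11130 to 13417 and 10297 to 12265, and for 8 measured of 11 osteoblast markers 4659 to 6271, 7416 to 10630 and 15090 to 17552. The 9 osteoclast markers summed to 706 to 809, 703 to 1718 and 12861 to 15215, so that zone III carried most of their signal, and the 10 endothelial markers to 940 to 1595, 396 to 743 and 3194 to 3582. The 10 macrophage markers summed to 1239 to 2166, 617 to 998 and 5077 to 6061, with C1qa under a mean signal of 50 in every zone. The 10 markers of fibrous tissue and perichondrium summed to 11557 to 14805, 4644 to 7021 and 6505 to 7366. No array held a marker listed at 0. As a sign of RNA quality, Gapdh control probe sets at the 3′ end read 1.98 to 2.28 times those at the 5′ end on zone III arrays and 1.25 to 1.76 times on the others, while for actin the order was the reverse, with 1.70 to 2.02 on zone III arrays and 2.09 to 3.23 on the others. These tissue markers and ratios differ between the zones along with every comparison below, and their part in the results was not tested.

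Secreted proteins enter the ER through the Sec61 translocon, fold there with the help of chaperones and disulfide isomerases, and leave in vesicles coated by COPII. Procollagen also needs hydroxylation of its proline and lysine residues and the chaperone Hsp47 before it can leave, and outside the cell it is trimmed and cross-linked. When folding capacity falls short, ER membrane sensors raise transcription of chaperone genes, and chondrocytes, which secrete collagen in bulk, are a classic setting for this response.

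The unfolded protein response is known to act through short promoter elements, and these are shown because 7 of the chaperone genes below carry one of them in its strict form. RefSeq promoter windows of 300 bases, from 250 before to 50 after the gene start (GRCm38.p6), were at hand for 33 of the 42 genes, with no entry for Atf6, Bmp1, Creb3l1, Fkbp10, Hyou1, Lox, Manf, Plod2 and Sec61a1. The ER stress response element ERSE, here CCAAT, then 9 bases of any kind, then CCACG, on either strand, occurred in 39 of 32851 windows of all genes (0.119%) and in 7 of the 35 windows of these genes, at 8 places. Each is printed 5′ to 3′ on the strand that reads CCAAT first, with 5 flanking bases on either side and both fixed blocks in capitals.
Hspa5, chr2:34772020-34772048, + strand, from 65 bases before the start: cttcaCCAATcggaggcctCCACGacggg
Hsp90b1, chr10:86705528-86705556, + strand, from 107 bases before: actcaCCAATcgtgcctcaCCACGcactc
Hsp90b1, chr10:86705633-86705661, - strand, from 212 bases before: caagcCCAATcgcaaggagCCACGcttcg
Pdia6, chr12:17266486-17266514, + strand, from 98 bases before: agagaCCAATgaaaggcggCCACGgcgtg
Creld2, chr15:88819515-88819543, - strand, from 126 bases before: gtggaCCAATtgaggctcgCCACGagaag
Calr, chr8:84847070-84847098, + strand, from 162 bases before: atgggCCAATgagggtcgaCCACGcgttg
Canx, chr11:50325795-50325823, - strand, from 145 bases before: attgaCCAATcaccacgctCCACGaagaa
Dnajc3, chr14:118937822-118937850, + strand, from 105 bases before: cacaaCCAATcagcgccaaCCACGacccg

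The compact form ERSE-II, here ATTGG, 1 base of any kind and CCACG, occurred on either strand in 0.0365% of all windows and in those of Herpud1 and Dnajb11, and the element UPRE, TGACGTGG, in 0.676% of all windows and in those of Sec24d and Sec23a. The elements share the letters CCACG or their reverse complement, but none of the sites printed here overlap.
Herpud1, chr8:94386372-94386392, + strand, from 52 bases before the start: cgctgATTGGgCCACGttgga
Dnajb11, chr16:22857847-22857867, + strand, from base 8 after the start: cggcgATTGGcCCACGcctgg
Sec24d, chr3:123267465-123267482, + strand, from 26 bases before the start: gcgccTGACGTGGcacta
Sec23a, chr12:59011999-59012016, - strand, from base 7 after the start: cccttTGACGTGGcagag
A match is a description of these letters in these windows, and binding was not measured. The genes were chosen by name, with chaperones of this response among them, so their higher share is no test of the elements.

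Signal of these genes was highest in zone II for 33 of 41, where 29.9% of all 11808 genes tested had their highest zone mean. The questions asked of the zones were which of the genes differ as chondrocytes pass from the proliferating to the hypertrophic zone, and which differ on passing to the mineralizing zone. From zone I to zone II 22 of 41 rose and 4 fell at an adjusted p under 0.05, against 16% of all genes higher and 25.4% lower. From zone II to zone III 30 fell and 5 rose, against 22.7% of all genes lower and 30.8% higher. Between zones III and I 14 were lower and 4 higher, against 21.7% and 21.6%. Zone II against the mean of both neighbours gave 29 higher and 4 lower, where all genes gave 20.1% and 30.9%. Higher in zone II than in each neighbour were 22, against 10.2% of all genes, and lower than in each were Bmp1 and Lox, against 15.8%. The median log2 difference over the 41 genes was 0.35 from zone I to II, where all genes had a median of -0.09, and -0.56 from zone II to III, where all genes had 0.08. All tests are limma's with Benjamini-Hochberg adjustment over 22255 probe sets.

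**Figure D1:**
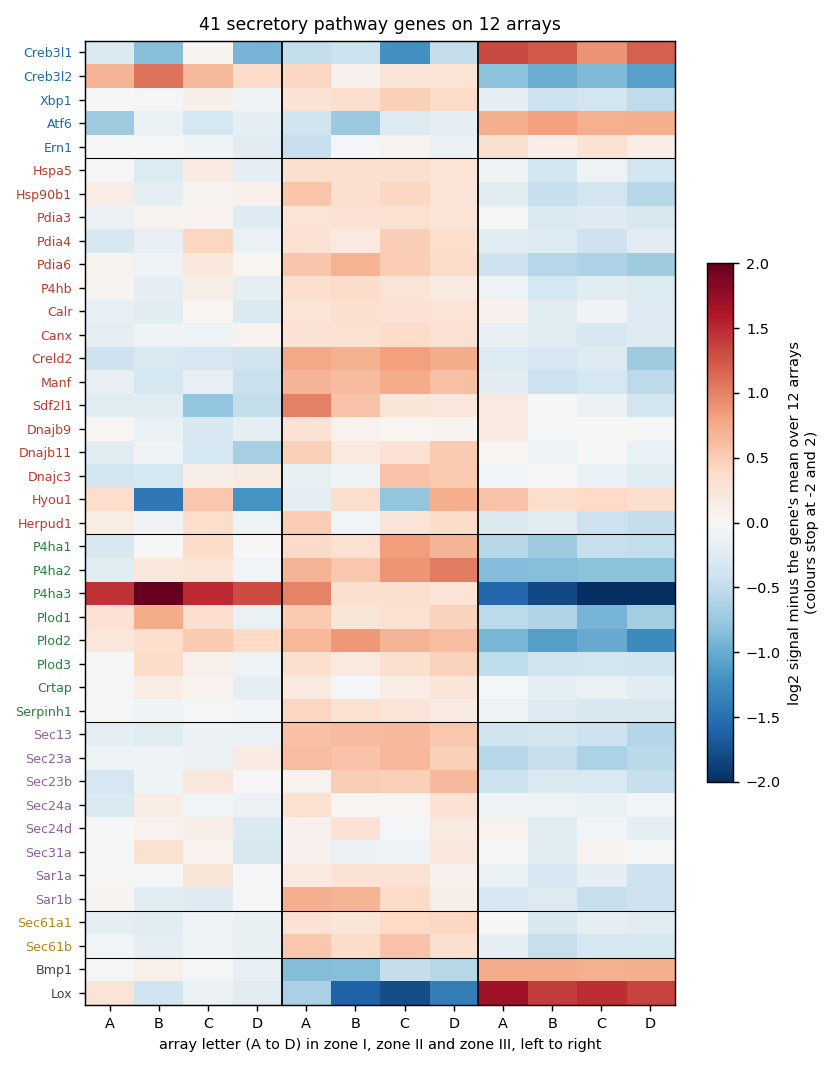
Log2 signal of 41 genes on the 12 arrays, each gene minus its own mean over the arrays, with arrays A to D of zones I, II and III from left to right and the genes grouped and coloured by role. Zone II is the warmest block for 33 of the 41 genes, while Creb3l1, Atf6, Bmp1 and Lox are warmest in zone III; under centring on ribosomal protein genes the median of these genes from zone I to zone II is 0.00.

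The rise from zone I to zone II depended on how the arrays are scaled. As deposited, every array has the same trimmed mean, and the median of all genes lies at -0.09 from zone I to II. Quantile normalization puts it at -0.01 and leaves 10 of the 41 genes higher and 4 lower, against 16.1% and 20.9% of all genes. Centring each array on its median puts it at 0.10, with 29 higher and 3 lower, against 25.4% and 17.9%. Centring on ribosomal protein genes puts it at -0.43, with 4 higher and 5 lower, against 4.90% and 44.6%. Relative to the median of all genes, the median of the 41 was higher by 0.44 as deposited, a gap that centring cannot alter, and by 0.17 after quantile normalization. The 41 genes were also brighter, with a median geometric mean signal over the 12 arrays of 1153.5, against 201.31 for all genes tested. Of the 41, 36 lay above the median of all genes tested. The shares and medians of all genes given throughout were not matched on signal, and the part of brightness in these gaps was not tested. The fall from zone II to III stood at 22 genes after quantile normalization, 34 after median centring and 13 after ribosomal centring, where all genes gave 25.9%, 34.3% and 7.17%. Creld2, Manf, Sdf2l1 and Sec13 rose from zone I to II under all 4 scalings, and Bmp1, Lox and P4ha3 fell. From zone II to III 13 genes fell under all 4, namely Creb3l2, Creld2, Hsp90b1, Manf, P4ha1, P4ha2, P4ha3, Pdia6, Plod1, Plod2, Sec13, Sec23a and Sec61b, and Atf6, Bmp1, Creb3l1 and Lox rose.

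**Figure D2:**
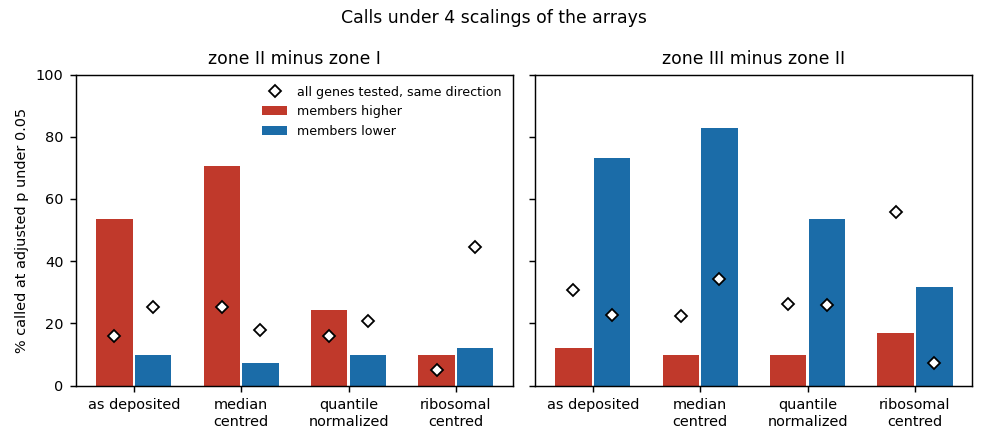
Share of the 41 genes called higher (red bars) and lower (blue bars) at an adjusted p under 0.05 under 4 scalings of the same 12 arrays, with open diamonds for the share of all 11808 genes called in that direction. From zone I to II 22 genes are higher as deposited but 10 after quantile normalization and 4 after ribosomal centring; from zone II to III the lower share stays above that of all genes under each scaling.

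Of the 5 sensors and transcription factors, Xbp1 rose and Creb3l2 fell from zone I to II, and 3 rose and 2 fell from zone II to III. The related ER-membrane factors Creb3l2 and Creb3l1 went opposite ways along the tibia. Creb3l2, also called Bbf2h7, drives Sec23a and matrix secretion in chondrocytes, and its signal was 863, 1135, 840.4 and 689.6 in zone I, 716, 569, 638 and 647 in zone II, and 305, 269.9, 289.8 and 254 in zone III. All zone III arrays lay below all others, while zones I and II overlapped. It fell by 1.20 ± 0.15 (SE) on the log2 scale from zone II to III (adjusted p = 2.54e-05) and stood 3.11-fold lower in zone III than in zone I (adjusted p = 2.71e-06). The smaller fall from zone I to II, of 1.36-fold (adjusted p = 0.0327), was lost without any one of arrays A, B or C of zone I or B, C or D of zone II, at log2 values of -0.45 to -0.31, and a dimmer probe set gave 0.21 there, with an adjusted p of 0.321. Creb3l1, also called Oasis and known for activating collagen I in osteoblasts, had signals of 170.2, 116, 216 and 109.6 in zone I, 149.9, 155, 89.8 and 151 in zone II, and 519, 487, 389 and 478 in zone III. Zone III lay above every other array, and zones I and II overlapped. It rose by 1.81 ± 0.23 (SE) on the log2 scale from zone II to III (adjusted p = 4.14e-05).

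Atf6, the ER-membrane sensor released by cleavage in the Golgi, was likewise highest in zone III. It read 64.8, 96.5, 82.9 and 92.5 in zone I, 79.8, 63.3, 87.7 and 92.1 in zone II, and 174, 187, 173 and 175 in zone III. Zones I and II overlapped and zone III lay above both, with a rise of 2.22-fold from zone II (log2 difference 1.15 ± 0.15 SE, adjusted p = 4.32e-05). Ern1, whose product Ire1 splices the Xbp1 transcript, rose 1.28-fold from zone II to III (adjusted p = 0.035), with signals of 131 to 188 in zone II and 196 to 224 in zone III, which did not overlap. That call went without array A or D of zone II or A or C of zone III, at 0.24 to 0.36, and after quantile normalization, at 0.12. Xbp1, whose spliced message encodes the transcription factor, peaked in zone II instead, with spliced and unspliced message not told apart. Its signals were 2653, 2617, 2871 and 2519 in zone I, 3240, 3359, 3684 and 3473 in zone II, and 2320, 1960, 2029 and 1857 in zone III. The zones did not overlap. It rose 1.29-fold into zone II (adjusted p = 0.0142), a rise lost after quantile normalization at a log2 difference of 0.07, and fell by 0.76 ± 0.10 from zone II to III (adjusted p = 6.32e-05). At dimmer probe sets of Xbp1 the rise was called at 0.37 but not at 0.13 and 0.44. The fall was called there at -0.64 and -0.61 but not at -0.59.

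**Figure D3:**
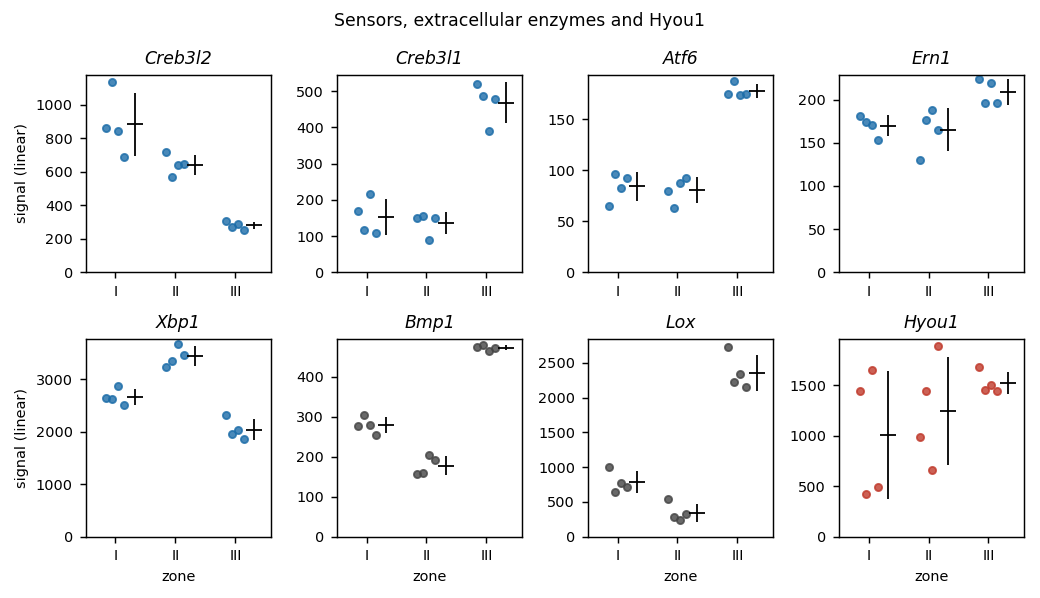
Linear signal of the 5 sensors and transcription factors, of Bmp1 and Lox, and of Hyou1 on each array by zone, with black marks for the mean and SD of 4 arrays. Creb3l2 lies lowest in zone III, with no array above 305, while Creb3l1, Atf6, Bmp1 and Lox are highest there; Hyou1 ranges from 422 to 1650 within zone I alone.

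Of the 16 chaperones and folding enzymes, 11 rose from zone I to zone II and 5 did not pass. Of the 11, 4 kept the call after quantile normalization and 3 after ribosomal centring, where P4hb turned to -0.01. All genes gave 16.1% and 4.9% higher under these scalings. From zone II to III 13 fell and 3 did not pass. Of the 13, 8 kept the call after quantile normalization, where Calr turned to 0.01, and 4 after ribosomal centring, where Calr and Dnajb11 turned to 0.09 and 0.08. All genes gave 25.9% and 7.17% lower there. The log2 differences into zone II ran from 0.19 to 1.13, and all 16 lay above the median of all genes both as deposited and after quantile normalization. Between the outer zones 3 of the 16 were lower in zone III, namely Hsp90b1, Pdia6 and Herpud1, and the other 13 did not pass.

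The largest rises into zone II among the 16 were those of Creld2, Manf and Sdf2l1. Creld2, a folding factor of the ER with an ERSE above, read 635, 685, 669.9 and 648 in zone I, 1456, 1396, 1498 and 1429 in zone II, and 701, 673, 708 and 518 in zone III. Every zone II array lay above every other, and the outer zones overlapped. It rose 2.19-fold into zone II (log2 difference 1.13 ± 0.11 SE, adjusted p = 1.12e-05) and fell 2.24-fold into zone III (adjusted p = 3.92e-06). Manf, a stress-induced ER protein that cells can also secrete, read 1675, 1474, 1675 and 1372 in zone I, 2993, 2901, 3130 and 2841 in zone II, and 1621, 1385, 1466 and 1298 in zone III. The pattern was the same, zone II apart from overlapping outer zones, with a rise of 1.92-fold (adjusted p = 3.63e-05) and a fall of 1.04 ± 0.11 on the log2 scale (adjusted p = 7.14e-06).

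Sdf2l1, which works with BiP and Dnajb11, read 99.8, 100.5, 69.7 and 85.2 in zone I, 238, 177, 140.0 and 138 in zone II, and 134, 118, 109.7 and 92.0 in zone III. Zone II lay above both neighbours, and the rise was 1.92-fold (adjusted p = 0.00225). Its fall of 0.59 ± 0.19 into zone III (adjusted p = 0.0234) was lost without array A or B of zone II or C or D of zone III, at -0.57 to -0.42. Dnajb11, a J-domain partner of BiP and a holder of ERSE-II, read 399, 448, 369 and 297 in zone I, 656, 535, 572 and 675 in zone II, and 480.3, 437, 473 and 429 in zone III. Zone II again lay above both neighbours. Dnajb11 rose 1.62-fold (log2 difference 0.70 ± 0.14 SE, adjusted p = 0.00161) and fell by 0.42 ± 0.14 into zone III (adjusted p = 0.0216), the fall being lost without A or D of zone II or B or D of zone III, at -0.40 to -0.37.

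Pdia6, a disulfide isomerase with an ERSE, fell furthest of the 16 after Creld2. It read 2728, 2435, 3027 and 2661 in zone I, 3836, 4198, 3653 and 3357 in zone II, and 1943, 1751, 1691 and 1585 in zone III. No zones overlapped. Its rise of 1.39-fold into zone II (adjusted p = 0.0062) stood at 0.16 and was no longer called after quantile normalization, while its fall of 2.16-fold into zone III (adjusted p = 5.91e-06) held under each scaling. Calr, the lectin chaperone calreticulin, read 2244, 2137, 2576 and 2048 in zone I, 3007, 3144, 3059 and 3021 in zone II, and 2656, 2132, 2396 and 2106 in zone III. Zone II lay above overlapping outer zones, with a rise of 1.36-fold (adjusted p = 0.00756) that stood at 0.16, and was no longer called, after quantile normalization.

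The major chaperones moved less. Hspa5, the ER Hsp70 called BiP, went from 3686 ± 498 in zone I to 4779 ± 85.7 in zone II and 3311 ± 374 in zone III (SD, n = 4). Its rise was 1.31-fold (adjusted p = 0.0255) and its fall 0.54 ± 0.12 on the log2 scale (adjusted p = 0.00276). The other ERSE holders Hsp90b1 (Grp94, the ER Hsp90) and Canx (calnexin, the membrane lectin chaperone) rose by 0.36 and 0.40 and fell by 0.79 and 0.56. Pdia3, the isomerase that partners both lectin chaperones, and P4hb, protein disulfide isomerase and also the beta subunit of prolyl 4-hydroxylase, rose by 0.35 and 0.34 and fell by 0.51 and 0.53. None of these 5 rises kept its call after quantile normalization, where the differences were 0.04 to 0.13. Of the 5 falls only that of Hsp90b1 kept it, at -0.36, and Hspa5, Canx, Pdia3 and P4hb stood at -0.08, -0.11, -0.20 and -0.05. At dimmer probe sets the rise was called at 0.52 for Hspa5 and 0.55 for Canx. No call was made into zone II at -0.16 for Hspa5, 0.32 for Hsp90b1, 0.16 for Canx and -0.06 for Pdia3. The fall was called there at -0.76 for Hspa5, -0.73 for Hsp90b1 and -0.64 for Canx, but not at -0.21 for Hspa5, -0.45 for Canx and 0.02 for Pdia3. Without 1 array, the rise was lost for Hspa5 (I B, I D or II C, at 0.32 to 0.38), Hsp90b1 (I B, I C, II A or II C, at 0.29 to 0.37), Pdia3 (I A, I D or II C, at 0.28 to 0.34) and P4hb (I B, I D, II A, II B or II C, at 0.29 to 0.35).

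Other members of the group did not follow in full. Pdia4, another isomerase, and Herpud1, which helps send misfolded proteins for degradation, did not pass from zone I to II (0.38 and 0.19) but fell by 0.62 ± 0.15 and 0.63 ± 0.14 into zone III (adjusted p = 0.00448 and 0.0031). Pdia4 passed from zone I to II without array C of zone I, at 0.54. Herpud1 was also 1.35-fold lower in zone III than in zone I, a call lost without I A, I C, III C or III D, at -0.41 to -0.35. Dnajc3, a J-domain protein with an ERSE, passed in no comparison at its brightest probe set (0.33 and -0.34), but of 3 dimmer ones above the filter 1 rose by 0.76 and 2 fell by 0.84 and 0.87.

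Dnajb9 and Hyou1 also passed in no comparison between 2 zones. Dnajb9, a J-domain protein of ER-associated degradation, read 1072, 947, 833 and 910.1 in zone I, 1266, 1094, 1071 and 1077 in zone II, and 1171, 1020, 1033 and 1034 in zone III. Its zones overlapped; the difference into zone II was 0.26 ± 0.11 (adjusted p = 0.0818), passed without array A of zone I at 0.33. Hyou1, the nucleotide exchange factor of BiP, read 1446, 422, 1650 and 494 in zone I, 988, 1443, 655 and 1884 in zone II, and 1681, 1456, 1498 and 1444 in zone III. Arrays B and D of zone I and A and C of zone II were low and the zones overlapped, so that the difference of 0.46 ± 0.44 into zone II is about as large as its error. Without array C of zone I it was called higher in zone III than in zone I, at 1.18.

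**Figure D4:**
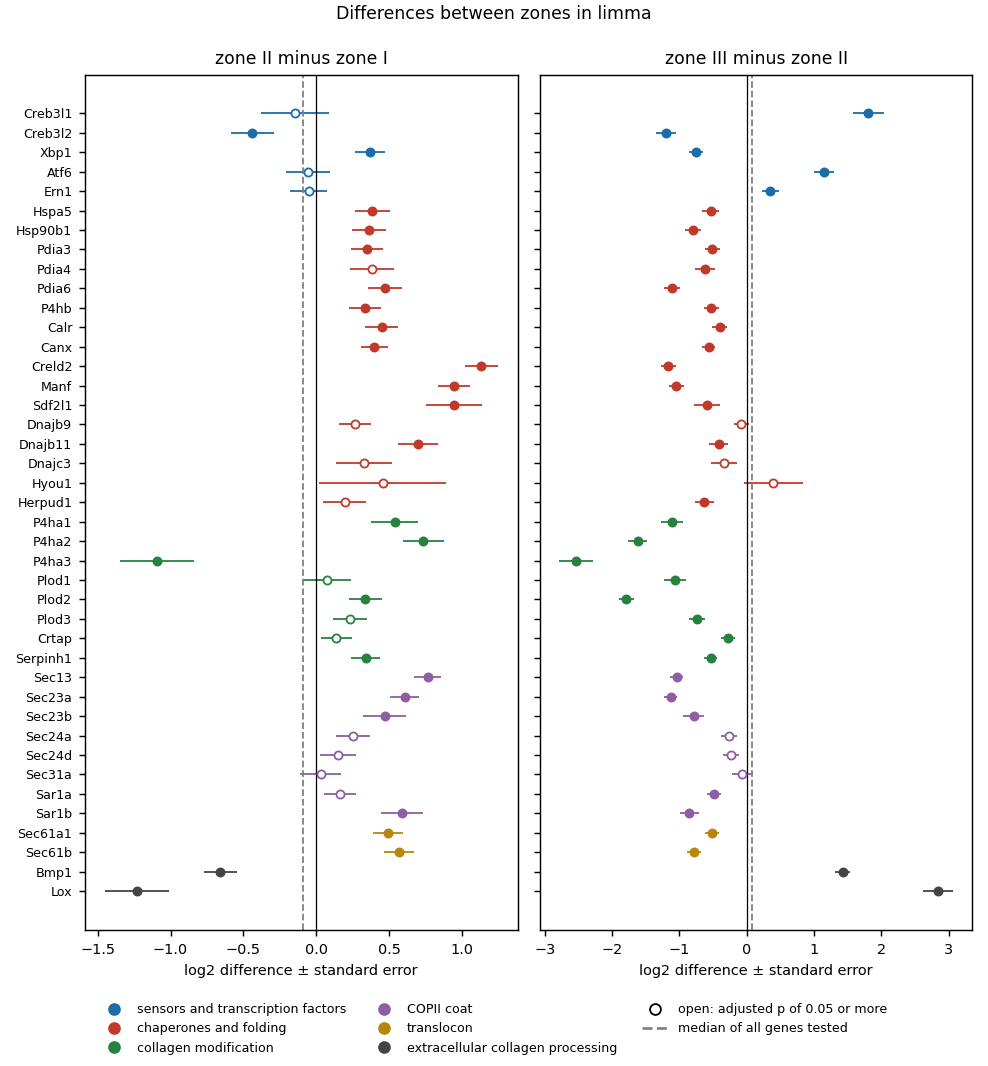
Log2 difference with its standard error for each of 41 genes from zone I to zone II (left) and from zone II to zone III (right), coloured by role, with filled points for an adjusted p under 0.05 and a dashed line at the median of all genes tested. Chaperones, COPII and translocon genes lie to the right of the line on the left panel, where 14 of the 22 rises lose their call after quantile normalization, and the 8 collagen modification genes all lie to its left on the right panel, where Crtap turns to 0.09 after quantile normalization.

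All 8 measured genes of collagen modification fell from zone II to zone III, with a median log2 difference of -1.09, and 6 of them stood lower in zone III than in zone I. After quantile normalization 6 of the 8 kept the fall and Crtap turned to 0.09, and after ribosomal centring 5 kept it and Crtap turned to 0.22. All genes gave 25.9% and 7.17% lower under these scalings. Into zone II 4 rose, P4ha3 fell and 3 did not pass. Among the 4, P4ha2 kept the rise after quantile normalization and none did after ribosomal centring, where Plod2 and Serpinh1 turned to -0.01. All genes gave 16.1% and 4.9% higher there.

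The 3 catalytic subunits of prolyl 4-hydroxylase, the enzyme that stabilizes the collagen triple helix, did not share a course. P4ha3 read 255, 384, 265 and 232 in zone I, 187, 117, 117 and 113 in zone II, and 31.5, 26.7, 14.3 and 21.8 in zone III. The zones did not overlap and fell in that order, 2.13-fold into zone II (adjusted p = 0.0048) and 5.77-fold into zone III (adjusted p = 4.74e-06), where it lay under the signal of 50 used as a filter. P4ha2 read 930.2, 1243, 1282 and 1033 in zone I, 1725, 1557, 1979 and 2209 in zone II, and 592, 595, 611 and 609 in zone III. It rose 1.66-fold into zone II (adjusted p = 0.00124) and fell 3.08-fold into zone III (adjusted p = 1.22e-06), with no overlap. P4ha1 read 1041, 1304, 1689 and 1297 in zone I, 1691, 1618, 2320 and 2084 in zone II, and 882, 787, 949 and 924 in zone III. Zones I and II overlapped at array C of zone I, and zone III lay below both. Its fall into zone III was 1.11 ± 0.16 (adjusted p = 1.05e-04), and its rise of 1.45-fold into zone II (adjusted p = 0.0198) was lost without I A or II C, at 0.43 to 0.44, and after quantile normalization, at 0.34.

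Plod2, the lysyl hydroxylase of collagen telopeptides, read 2230, 2403, 2716 and 2500 in zone I, 3021, 3459, 3055 and 2899 in zone II, and 1004, 882, 942 and 784 in zone III. No zones overlapped, and zone III stood 3.45-fold below zone II (log2 difference -1.79 ± 0.11 SE, adjusted p = 1.28e-07) and 2.73-fold below zone I (adjusted p = 8.41e-07). Its rise into zone II, 0.34 ± 0.11 (adjusted p = 0.0341), was lost without any one of I A, I B, I D, II A, II B or II C, at 0.28 to 0.35, and stood at 0.04 after quantile normalization. The other lysyl hydroxylases Plod1 and Plod3, the latter also a glycosyltransferase, did not pass into zone II (0.07 and 0.23; Plod3 passed without I B, at 0.32). They fell by 1.07 and 0.74 into zone III (adjusted p = 2.01e-04 and 1.99e-04). Serpinh1, the collagen chaperone Hsp47, went from 3423 ± 78.0 to 4337 ± 317 and 2993 ± 245. It rose by 0.34 and fell by 0.54 (adjusted p = 0.0178 and 6.99e-04), and the rise was lost without II A, at 0.29. After quantile normalization neither was called, at 0.00 and -0.08. Crtap, the partner of prolyl 3-hydroxylase, fell by 0.28 ± 0.11 at an adjusted p just under the threshold (0.050), with overlapping arrays, and the call was lost without any one of 9 of the 12 arrays, at -0.32 to -0.25.

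**Figure D5:**
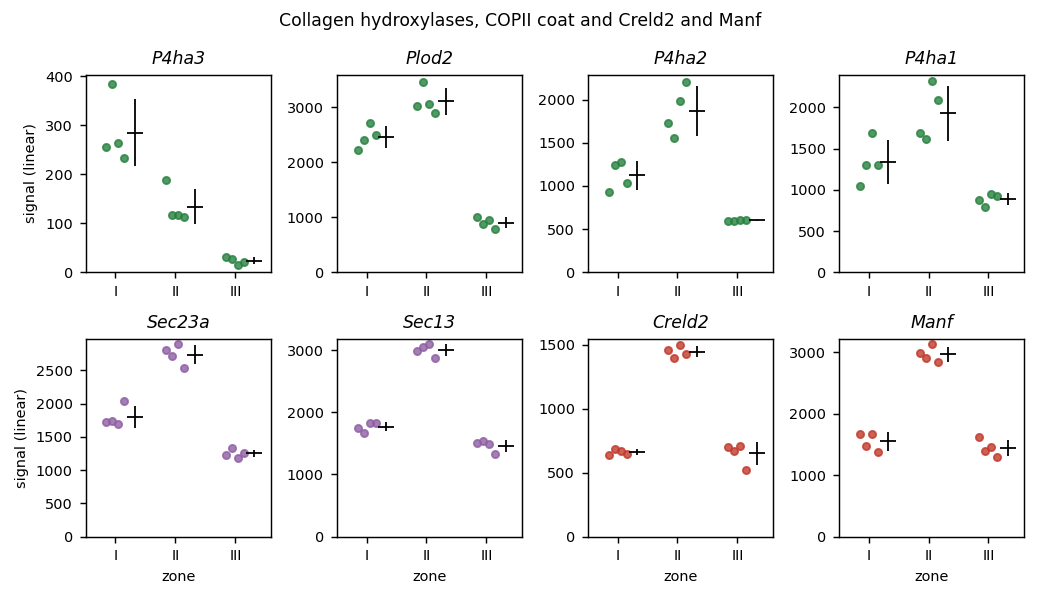
Linear signal of 4 collagen hydroxylase genes (green), 2 COPII coat genes (purple) and the chaperone genes Creld2 and Manf (red) on each array by zone, with black marks for the mean and SD of 4 arrays. P4ha3 falls from 284 in zone I to 23.6 in zone III, while P4ha2, Sec23a, Sec13, Creld2 and Manf peak in zone II; of the 8 genes Plod2 and P4ha1 lose their rise from zone I to II after quantile normalization, and P4ha2 and Sec23a lose theirs after ribosomal centring.

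The COPII genes had their highest mean in zone II and their lowest in zone III in all 8 cases. Of the 8, 4 rose into zone II and 5 fell into zone III, against 16% of all genes higher and 22.7% lower. After ribosomal centring 1 and 2 were left, against 4.9% and 7.17% of all genes, and Sec31a was called higher in zone III. After quantile normalization 2 of the 4 rises (Sec13 and Sec23a) and 4 of the 5 falls held. Sec23a, the inner coat subunit that Creb3l2 is known to drive and a holder of UPRE, read 1725, 1744, 1690 and 2045 in zone I, 2806, 2710, 2890 and 2542 in zone II, and 1232, 1326, 1185 and 1257 in zone III. The zones did not overlap. It rose 1.52-fold into zone II (adjusted p = 5.30e-04), while Creb3l2 did not rise there, and fell 2.19-fold into zone III (adjusted p = 1.81e-06). Sec13, of the outer coat, read 1751, 1672, 1826 and 1831 in zone I, 2982, 3053, 3090 and 2880 in zone II, and 1506, 1533, 1487 and 1321 in zone III. No zones overlapped here either, with a rise of 1.70-fold (adjusted p = 5.30e-05) and a fall of 1.04 ± 0.09 (adjusted p = 1.93e-06).

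Sar1b, the GTPase that starts coat assembly and is needed for large cargo, read 1906, 1576, 1533 and 1813 in zone I, 3049, 2942, 2390 and 1995 in zone II, and 1448, 1514, 1338 and 1382 in zone III. Array D of zone II lay nearest to zone I, without overlap. Sar1b rose by 0.59 ± 0.14 (adjusted p = 0.0063), or 0.33 and no longer called after quantile normalization, and fell by 0.85 ± 0.14 (adjusted p = 3.28e-04). Sec23b, the paralogue of Sec23a, read 907, 1089, 1354 and 1158 in zone I, 1207, 1626, 1600 and 1806 in zone II, and 859.6, 943, 931 and 839 in zone III. Zones I and II overlapped, and so did I and III. Sec23b rose 1.38-fold (adjusted p = 0.0267), a call lost without any one of I A, I B, II B, II C or II D, at 0.37 to 0.46, and after quantile normalization, at 0.32, and it fell 1.73-fold into zone III (adjusted p = 7.95e-04).

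The other GTPase gene Sar1a did not pass into zone II (0.16) and fell by 0.49 ± 0.11 into zone III (adjusted p = 0.00265), or by 0.06 and not called after quantile normalization, and a dimmer probe set of Sar1a rose by 1.28 into zone II. The cargo-binding subunits Sec24a and Sec24d and the outer coat subunit Sec31a passed in no comparison, at log2 differences into zone II of 0.25, 0.15 and 0.03. Sec24a passed without array B of zone I, at 0.33, and after quantile normalization, at 0.30. Sec13 and Sar1a were also lower in zone III than in zone I, by 0.28 and 0.32. Those calls were lost without 1 of 6 arrays for Sec13 (I A, I C, I D, III A, III C or III D, at -0.29 to -0.23) and 1 of 5 for Sar1a (I A, I C, III B, III C or III D, at -0.35 to -0.26), and neither was called after quantile normalization, at -0.19 and -0.20.

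Both translocon genes rose and fell. Sec61a1, the channel, read 2512, 2444, 2708 and 2562 in zone I, 3463, 3384, 3742 and 3797 in zone II, and 2870, 2268, 2508 and 2445 in zone III, with zone II above overlapping outer zones. It rose 1.41-fold (adjusted p = 0.00256) and fell by 0.52 ± 0.10 (adjusted p = 0.00118), and after quantile normalization neither was called, at 0.19 and -0.09. At dimmer probe sets of Sec61a1 the rise was called at 0.66 and 0.73 but not at 0.59, 0.29 and 0.11. The fall was called there at -0.52 but not at -0.51, -0.34, -0.16 and -0.11. Sec61b, a small subunit of the channel, read 2929, 2648, 2917 and 2746 in zone I, 4433, 3938, 4514 and 3797 in zone II, and 2663, 2215, 2403 and 2431 in zone III. Zone II lay above the rest and the outer zones overlapped. Sec61b rose 1.48-fold (adjusted p = 0.00107), not called after ribosomal centring, and fell 1.72-fold (adjusted p = 5.13e-05), which held under each scaling.

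Lox and Bmp1, which act on collagen outside the cell, were lowest in zone II and highest in zone III. Lox, lysyl oxidase, which starts the cross-links of collagen fibrils, read 999.6, 634, 772 and 714 in zone I, 534, 274, 245 and 323 in zone II, and 2722, 2218, 2338 and 2146 in zone III. No zones overlapped, with zone II lowest and zone III highest. It fell 2.35-fold into zone II (log2 difference -1.23 ± 0.22 SE, adjusted p = 9.83e-04) and rose 7.16-fold into zone III (2.84 ± 0.22, adjusted p = 6.50e-07). Of its dimmer probe sets 1 also fell into zone II, by 1.02, and 1 gave 0.13 there, which did not pass, and both rose into zone III, by 3.25 and 1.59. Bmp1, the proteinase that removes the C-propeptide of procollagen, read 277, 304, 279 and 254 in zone I, 156, 158, 204 and 191 in zone II, and 475, 478, 464 and 473 in zone III. It too was lowest in zone II and highest in zone III on all arrays, 1.58-fold lower (adjusted p = 7.35e-04) and then 2.68-fold higher (adjusted p = 7.95e-07). Summed marker signal of osteoblasts, osteoclasts, endothelial cells and macrophages, given above, was highest in zone III as well. Of these sums, those of endothelial cells and macrophages were also lowest in zone II, while that of osteoblasts was lowest in zone I. Any link of these sums to Lox and Bmp1 was not tested.

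Each of the 79 calls between 2 zones kept its sign within each of the 3 fluidics runs, each of which held 4 arrays and all 3 zones. Where the arrays of 2 zones did not overlap, that sign was fixed in advance. This held for all calls but those of Creb3l2, P4ha1 and Sec23b into zone II and Crtap into zone III. The runs are therefore no separate support for the calls. Of 31 further probe sets above the filter, for 19 of the genes, none was called the opposite way to the brightest one in 93 comparisons, 62 had the same call, 27 missed a call the brightest one made, and 4 made one it did not.

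Other genes of the same pathway, 140 in 6 lists that exclude the genes above, were counted in the same way. Of 128 tested, 57 rose and 7 fell from zone I to II, against 16% of all genes higher and 25.4% lower. From zone II to III 79 fell and 8 rose, against 22.7% lower and 30.8% higher. The medians were 0.31 and -0.50. After quantile normalization 32 rose and 9 fell into zone II, against 16.1% and 20.9% of all genes. Into zone III 56 fell and 12 rose, against 25.9% and 26.1%. With ribosomal centring 10 rose and 19 fell into zone II, against 4.9% and 44.6% of all genes. Into zone III 18 then fell and 31 rose, against 7.17% and 55.9%. The lists differed. Of 27 genes of translocation, signal peptidase and N-glycosylation, 17 rose into zone II and 24 fell into zone III. These counts were 8 and 11 after quantile normalization and 3 and 4 after ribosomal centring. Of 23 genes of stress signalling and ER-associated degradation, 5 rose and 1 fell into zone II, and 6 fell and 3 rose into zone III. Those rises into zone II and falls into zone III lay near the shares of all genes, 16% and 22.7%. Fewer went the other way than among all genes, where 25.4% were lower into zone II and 30.8% higher into zone III. Quantile normalization left 4 rises and 5 falls, and ribosomal centring 0 and 1. The median of that list was 0.20 into zone II, against -0.09 for all genes. For zone II against the outer zones it was 0.05, against -0.10. Sec11c, a signal peptidase subunit, rose 2.76-fold into zone II (adjusted p = 8.75e-05). In a list of the COPI coat and retrieval 11 of 15 rose into zone II and 12 fell into zone III. These counts were 5 and 8 after quantile normalization and 1 and 4 after ribosomal centring. The retrieval receptor Kdelr3 of that list rose 1.62-fold and fell by 1.31 ± 0.12. Sec22b, a SNARE of ER export, rose by 0.71 and fell by 1.15, whereas Sec16b, of the ER exit site, fell 2.50-fold into zone II and rose 2.62-fold into zone III. Among other folding genes 7 of 23 rose into zone II and 16 fell into zone III, and the oxidase gene Ero1a fell 2.05-fold there. Quantile normalization left 4 rises and 14 falls in this list, and ribosomal centring 1 and 1. Creb3, a relative of Creb3l1, rose by 0.57 and fell by 0.88, with the rise lost after ribosomal centring.

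The other collagen genes held the largest differences of the pathway. Of 18 tested, 7 rose and 3 fell into zone II, against 16% of all genes higher and 25.4% lower. Into zone III 11 fell and 3 rose, against 22.7% lower and 30.8% higher. Quantile normalization gave 6 rises and 4 falls into zone II, against 16.1% and 20.9% of all genes, so that the falls lay near that share. Into zone III it gave 10 falls and 4 rises, against 25.9% and 26.1%. Ribosomal centring gave 4 rises and 5 falls, against 4.9% and 44.6% of all genes, then 7 of each, against 7.17% lower and 55.9% higher. P3h2, a prolyl 3-hydroxylase, went from 141 ± 16.4 to 703 ± 100.7 and 180.2 ± 4.7, a rise of 4.99-fold (adjusted p = 9.84e-08) and a fall of 3.87-fold (adjusted p = 1.61e-07). Colgalt2, a collagen galactosyltransferase, fell 11.4-fold into zone III (adjusted p = 5.92e-08), from 1055 ± 120.4 to 93.4 ± 18.8. The lysyl oxidase family split. Loxl4 rose 11.5-fold into zone II (log2 difference 3.53 ± 0.23 SE), Loxl1 fell 5.41-fold there and rose 2.73-fold into zone III, and Loxl3 was 4.10-fold lower in zone III than in zone I. Each of the differences given for P3h2, Colgalt2, Loxl4, Loxl1 and Loxl3 was called under all 4 scalings.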

How the data were processed

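The authors deposited 1 signal intensity per probe set and array for 45101 probe sets on 12 arrays, linear, with the same mean on every array once the top and bottom 2% are left out. The notes with the samples name RMA, whose output these values do not look like, so how the signal was computed stays unknown. Genes were named through GEO's platform annotation, from the 34945 probe sets with 1 symbol (932 have several, 9160 none); 34741 matched RefSeq by Entrez ID and 0 symbols changed. Scanner record files were used for the fluidics runs only.

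The log2 signal, without an offset, of the 22255 probe sets whose mean reached 50 in any zone was fitted with limma 3.58.1 in R 4.3.3 (lmFit, contrasts.fit, eBayes) on all 12 arrays without covariates, adjusted by Benjamini-Hochberg. Errors are SD over 4 arrays or limma's SE, and 4 arrays per zone limit the precision. On simulated data for zone II minus zone I, known changes of 1.5, 2 and 4-fold were put into 67, 67 and 66 of 22255 probe sets. Of these, 25.4%, 67.2% and 95.5% were recovered. All other simulated probe sets were left unchanged, while in the data 16% of genes were called higher and 25.4% lower. With so few changes the adjustment is stricter, so these shares do not give the recovery in the data.

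The genes and lists were chosen with earlier results of these data known. Every gene is named. Values on each array are given for up to 4 genes per role with the largest gap between zone means and for Creb3l2, Calr, Hyou1, Dnajb9 and Dnajb11, and up to 2 genes per pathway list, comparison and direction by smallest adjusted p could be named. Marker lists for erythroid cells and skeletal muscle were also read, with summed signals of 498 to 3694 and 332 to 1592 over all arrays. Alternatives covered filters, scalings, a log offset, the fit, blocks, probe set choice and single arrays.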

Additional observations from a re-analysis of the deposited data

Results flagged for a closer look

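In 7 of 123 groups of 4 arrays 1 array stood apart from the other 3 by Dixon's ratio, which chance does in about 1 of 20 groups (6.2 of 123). In zone II, array C read 89.8 for Creb3l1, where the others read 149.9 to 155, array A read 1266 for Dnajb9, against 1071 to 1094, and array A read 187 for P4ha3, against 113 to 117. In zone III, array B read 187 for Atf6, against 173 to 175, array C read 131 for Pdia4, against 147 to 149, and array A read 1171 for Dnajb9, against 1020 to 1034. In zone I, array D read 2045 for Sec23a, against 1690 to 1744. No difference listed here was explained or tested further.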

How the results depend on the processing

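Counts of the 41 genes kept within 1.5 times of the values in the report except as follows. From zone I to II 22 higher became 13 with no filter, 10 after quantile normalization, 4 after ribosomal centring and 8 when 1.5-fold was also required, and 4 lower became 2 when a gene's probe sets were represented by their median. From zone II to III 30 lower became 13 after ribosomal centring. Between zones III and I 14 lower became 6 after ribosomal centring and 6 at 1.5-fold, and for zone II against the mean of zones I and III 29 higher became 9 and 13. The cause was not tested, beyond the shift of all genes by each scaling. The median of all genes under ribosomal centring was -0.43 from zone I to II, 0.58 from II to III and 0.14 between III and I.

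Of 164 differences of single genes, 16 changed sign after quantile normalization, 5 after median centring and 40 after ribosomal centring, most of them passing under neither setting. Those called under at least 1 setting were as follows. After quantile normalization these were Calr at 0.0107 and Crtap at 0.0932 from zone II to III, and Sar1a at -0.0354 for zone II against the outer zones. After ribosomal centring they were P4hb at -0.0111, Plod2 at -0.0102 and Serpinh1 at -0.008 from zone I to II, and from zone II to III Calr at 0.0909, Dnajb9 at 0.41, Dnajb11 at 0.0759, Crtap at 0.22, Sec31a at 0.42 and Sar1a at 0.0081. For zone II against the outer zones they were Creb3l2 at -0.0412, Herpud1 at -0.0093, Sec31a at -0.37 and Sar1a at -0.10. A call changed without at least 1 array for 28 of 164 gene results, and for 136 it did not.

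Arrays with the same letter correlated at -0.13 to 0.26 in their deviations, 8 of 12 pairs over 0.1, and 16 of 24 best with their own letter, and since not every pair was over 0.1 and no label ties a letter to a litter, the pairing was left undecided and the fit without it was kept. With the replicate block the counts were 22 higher and 4 lower from zone I to II, 5 and 29 from II to III, 5 and 14 between III and I, and 29 and 4 for zone II against the outer zones.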
